A study of Mus musculus with 91 samples.

Results

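Forkhead (Fox) genes encode transcription factors that share a winged-helix DNA-binding domain. They were followed here by reporter, sex and stage in sorted cells of the fetal mouse gonad. Members were the genes whose symbol has the form Fox, a family letter and a number, taken from transcript clusters (the probe sets of the array, each standing for 1 transcribed locus) that name a single gene, and the cluster with the highest mean was used for each gene. This gave 42 genes in 44 clusters, of 19938 genes in 21789 single-gene clusters of the whole array, and 1 further gene of the family was set aside by the rule. RNA from sorted cells was hybridized to Affymetrix Mouse Gene 1.0 ST arrays, with 3 arrays for each of 30 groups of XY and XX cells from E11.5 through E12.5 to E13.5. Cells were pooled from the gonads of 1 or more litters, and the p-values below measure the spread between such pools. Values are log2 intensities, so that a difference of 1 is a doubling.

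The supporting cells, which become Sertoli or granulosa cells, carried *Sry-EGFP* in XX gonads at all stages and in XY gonads at E11.5, and *Sox9-ECFP* in XY gonads at E12.5 and E13.5. The *Sry-EGFP* transgene lacks the reading frame of *Sry*, and the change of reporter cannot be told apart from the later XY stages. At E12.5 and E13.5 the XY and XX supporting cells differed in reporter, so reporter and sex cannot be told apart there. The same holds for changes of their sex difference, and for contrasts with other lineages that use it. Interstitial/stromal cells were sorted by a fluorescent reporter of their own, and germ cells by *Oct4-EGFP* from gonads with the mesonephros attached. The *Sry-EGFP*, *Sox9-ECFP* and *Oct4-EGFP* embryos came from crosses of CD-1 with C57BL/6J, the embryos for interstitial/stromal cells from CD-1 and a mixed background, and the *Flk1-mCherry* endothelial cells from homozygous CD-1 mice. Endothelial samples at E11.5 kept part of the mesonephros. Homozygous *αSma-EYFP* cells (FVB in the labels, a line kept on mixed FVB and CD-1 stock by the study's methods) are a mixed population, and they were compared separately. None of these groups carried an agent or a deletion of a forkhead gene.

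Forkhead factors are grouped by letter. FOXA proteins open chromatin for other factors in endoderm, FOXC proteins act in mesenchyme and in vessels, and FOXD1 marks stroma of the developing kidney. FOXH1 carries Nodal and activin signals with SMAD proteins, FOXJ1 drives the genes of motile cilia, and FOXM1 drives genes of G2 and mitosis in dividing cells. FOXO proteins induce arrest and stress genes and are held out of the nucleus by PI3K and AKT, and FOXP proteins are mostly repressors. In the gonad, FOXO3 is known for holding primordial follicles at rest in the ovary and FOXO1 for its place in spermatogonia.

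The 4 lineages carried their own markers. All of 17 Sertoli genes were higher in supporting cells than in the other lineages, as were 10 of 10 interstitial and mesenchymal genes in interstitial/stromal cells, 11 of 11 germ cell genes in *Oct4-EGFP* cells and 12 of 12 endothelial genes in *Flk1-mCherry* cells. In these comparisons, described below, 65.4%, 69.6%, 76.8% and 72.2% of all clusters were called different. The *Flk1-mCherry* cells were also higher in 9 of 9 macrophage genes, 5 of 6 red blood genes and 5 of 6 fetal Leydig genes. The study found Leydig cells in the XY *Flk1-mCherry* sorts and ascribed them to leaky expression of the reporter. The word endothelial thus names the sort below, which in XY gonads after E11.5 is a mixed one. Of all sorted-cell arrays, the second replicate of XY endothelial cells at E11.5 stood furthest from its group, with a mean correlation of 0.946 over all tested clusters. Calls by sex or stage that were lost without it are given with and without it. Against the other lineages, *Foxd3* in endothelial cells and *Foxd4* in germ cells also lost their calls without it (0.054 and −0.074). In these bulk samples, fewer cells of a type and less RNA per cell cannot be told apart.

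Sequence before the transcription start was available in the RefSeq table (GRCm38.p6) for 27 of the 42 genes. It is shown for 4 genes that carry results below, *Foxr1* (germ cells), *Foxd1* (early stroma), *Foxp4* and *Foxa3* (XY cells), as the 150 bases before the start, 5′ to 3′ on the strand of the gene. Capitals mark matches to the motifs searched on both strands. *Foxr1* lies at chr9:44440869-44441018 on the minus strand, *Foxd1* at chr13:98354095-98354244 on the plus strand, *Foxp4* at chr17:47924633-47924782 on the minus strand and *Foxa3* at chr7:19023540-19023689 on the minus strand.
Foxr1: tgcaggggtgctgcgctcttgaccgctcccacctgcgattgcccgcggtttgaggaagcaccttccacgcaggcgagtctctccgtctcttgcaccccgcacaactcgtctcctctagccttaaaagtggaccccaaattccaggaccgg
Foxd1: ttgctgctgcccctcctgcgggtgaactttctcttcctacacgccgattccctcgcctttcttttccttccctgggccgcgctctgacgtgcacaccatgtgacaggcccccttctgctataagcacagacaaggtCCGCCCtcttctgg
Foxp4: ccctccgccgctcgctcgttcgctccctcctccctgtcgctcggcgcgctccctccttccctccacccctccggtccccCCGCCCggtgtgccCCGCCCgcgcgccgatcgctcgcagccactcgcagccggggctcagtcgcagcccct
Foxa3: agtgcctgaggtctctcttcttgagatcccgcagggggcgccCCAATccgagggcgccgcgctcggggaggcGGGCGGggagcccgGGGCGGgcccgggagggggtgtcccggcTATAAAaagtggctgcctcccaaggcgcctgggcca
The *Foxa3* window held a TATA box, a CCAAT box and 2 GC boxes, that of *Foxp4* 2 GC boxes, that of *Foxd1* 1 GC box and that of *Foxr1* no motif searched. The GC box GGGCGG was found in 17 of 32 forkhead windows and in 28.6% of 32851 windows of all genes. The CCAAT box was found in 11 of 32 and 24.5% of all, the TATA box TATAAA in 2 and 7.57%, the SOX motif ACAAAG in 3 and 9.88%, the GATA motif AGATAA in 1 and 5.65%, the forkhead motif TGTTTAC in 1 (*Foxa1*) and 1.8%, and the E-box CACGTG in 0 and 4.3%. None of these motifs is contained in another. These counts describe the letters of the windows.

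Of the 42 genes, 38 passed 6 on the log2 scale in 2 or more arrays of a group of 3, and were tested. *Foxf2*, *Foxl1*, *Foxn1* and *Foxr2* did not, with highest group means of 5.51, 5.26, 5.91 and 5.71. The members differed widely in how much they varied. The span between the lowest and the highest of the 24 group means of the 4 lineages was under 0.5 for 16 of the 38 (42.1%, against 19.9% of all tested clusters) and over 1 for 15 (39.5%, against 51.3%). The widest spans were those of *Foxd1* (4.15), *Foxc2* (4.01), *Foxr1* (2.99), *Foxm1* (2.61), *Foxp1* (2.32), *Foxp4* (2.24) and *Foxn3* (2.23). Among the narrow ones were *Foxa2* (0.26), *Foxi2* (0.27), *Foxd2* (0.28), *Foxi1* (0.28) and *Foxp3* (0.31), the last a regulator of T cells. In all 6 settings of sex and stage, germ cells were highest for 3 members, endothelial cells for 2, supporting cells for 1 (*Foxo3*) and interstitial/stromal cells for none.

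**Figure D1:**
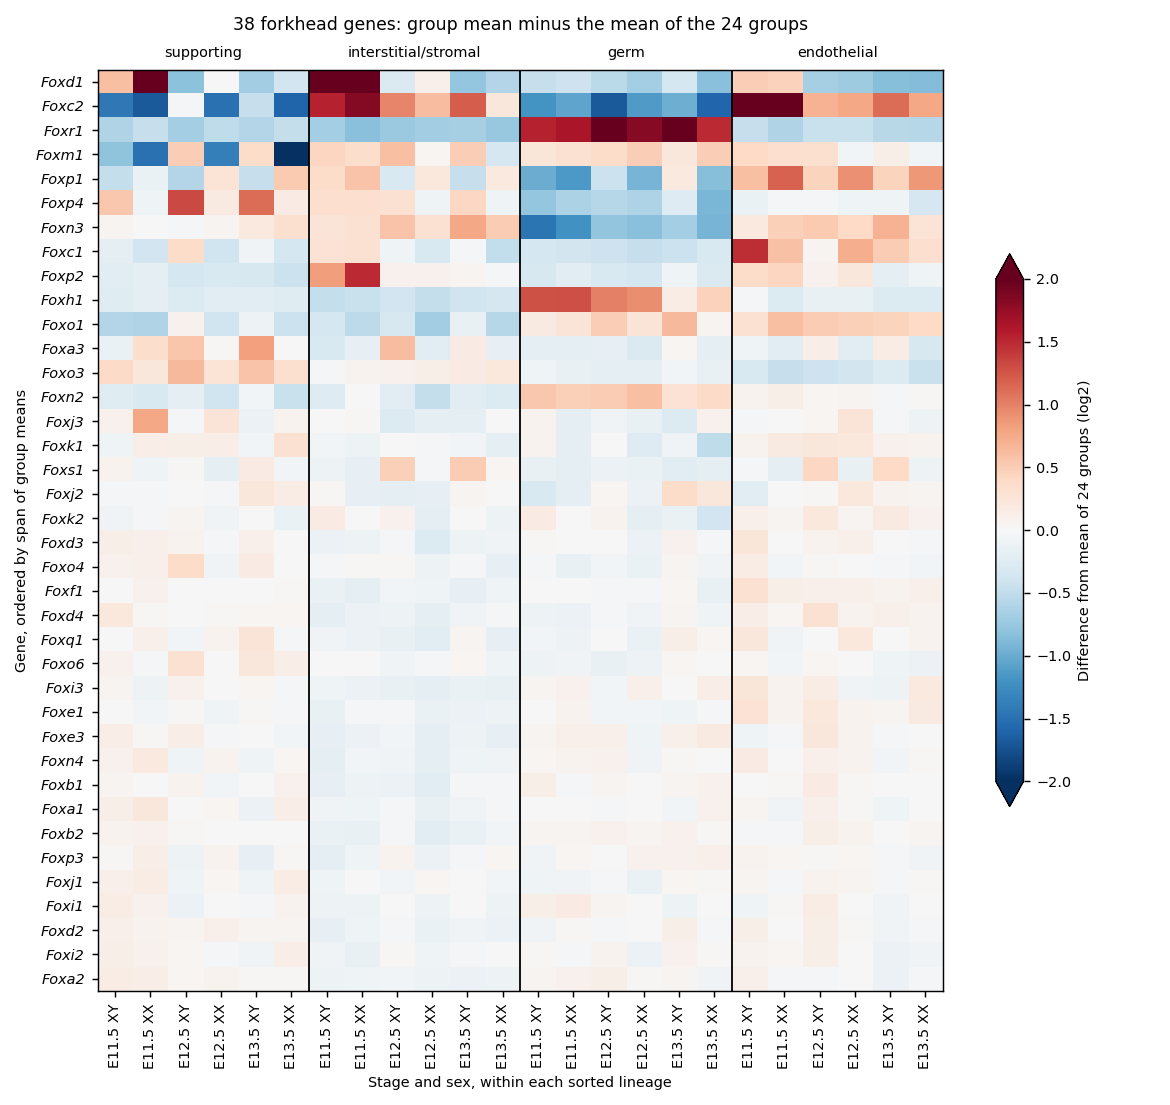
Mean log2 intensity of each tested forkhead gene in the sorted-cell groups, shown relative to the mean of the gene, with genes down the page and groups of 3 arrays along the x axis, and colours that end at a difference of 2. *Foxr1* and *Foxh1* stand out in germ cells, *Foxd1* at E11.5, *Foxc2* in endothelial and interstitial/stromal cells, and *Foxm1* by its low level in XX supporting cells.

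Groups were compared with limma, an empirical Bayes linear model, with 1 mean per group over the 72 arrays of the 4 lineages, and a gene was called at an adjusted p under 0.05 (Benjamini-Hochberg over 16820 clusters). Each lineage was first set against the mean of the other 3. Germ cells called 23 of the 38 members, 7 higher and 16 lower, where 76.8% of all clusters were called. With arrays centred on their medians, the split among members was 18 higher and 10 lower, so the direction of small differences in germ cells depends on the scaling. *Foxr1* was set apart most clearly. Its lowest, median and highest values were 7.18, 7.74 and 8.43 over the 18 germ cell arrays, against 5.03, 5.34 and 5.70 over the 54 arrays of other lineages. Every germ cell array was above every other array, and the means differed by 2.39 (SE 0.05, limma adjusted p = 9.6e-43). No array outside germ cells reached 6, the limit used to choose genes for testing, so no fold is given. *Foxr1* was thus tested only because of its germ cell level, and its adjusted p is no independent measure of the separation.

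*Foxh1*, the partner of SMAD proteins, was the next highest germ cell gene. It ranged over 6.25, 7.11 and 7.68 (lowest, median and highest) in germ cells, against 5.62, 5.92 and 6.35 elsewhere, a difference of 1.13 (SE 0.04, limma adjusted p = 1.2e-31). The ranges met only at E13.5, since the germ cell level of *Foxh1* fell with stage in both sexes. XY germ cells had 7.49, 7.37 and 7.62 at E11.5, 7.44, 7.14 and 7.07 at E12.5 and 6.57, 6.25 and 6.26 at E13.5. XX germ cells had 7.54, 7.68 and 7.31 at E11.5, 7.61, 6.77 and 7.05 at E12.5 and 6.85, 6.65 and 6.51 at E13.5. In both sexes every array at E13.5 was below every array at E11.5, by 1.13 in XY cells (adjusted p = 1.6e-10) and by 0.84 in XX cells (adjusted p = 2.4e-07). *Foxn2* was also higher in germ cells, with 8.21, 8.57 and 8.90 against 7.46, 7.98 and 8.35 elsewhere (difference 0.62, SE 0.04, adjusted p = 8.9e-19), and its ranges overlapped.

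Genes of the Nodal pathway, in which FOXH1 acts, were examined beside *Foxh1*. In germ cells against the other lineages, 7 of 10 tested were higher and 3 lower, with a median difference of 0.29 against −0.02 over all clusters. Of all clusters 76.8% were called in that comparison. *Tdgf1*, the Nodal co-receptor, was higher by 3.20 (SE 0.08) and *Smad3*, a signal carrier, lower by 1.23 (SE 0.05). At E13.5 5 of 10 were higher in XY than in XX germ cells and 0 lower (median 0.37, against 0.02 over all clusters), led by *Tdgf1* (3.50, SE 0.23) and *Lefty1*, a Nodal antagonist (1.47, SE 0.12). Of all clusters 21.1% were called between the sexes there. *Foxh1* itself was not called there (XY minus XX −0.31, SE 0.12, adjusted p = 0.065). Between E11.5 and E13.5 *Tdgf1* fell by 1.48 in XY germ cells and fell by 4.31 in XX germ cells.

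*Foxn3*, a repressor that acts in the checkpoint response, was low in germ cells, and was picked after its values were seen. It had 9.10, 9.70 and 10.04 (lowest, median and highest) in germ cells, against 10.40, 10.96 and 11.52 elsewhere. In the cluster used here, no germ cell array reached another lineage (difference −1.31). A second cluster of the gene had a difference of −0.69, and its arrays overlapped. At E13.5 that cluster had 7.43 in an XY germ cell array and 7.12 in an XX endothelial array. Other members lower in germ cells were *Foxc2* (−1.70), *Foxp1* (−0.92), *Foxp4* (−0.84) and *Foxd1* (−0.73).

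**Figure D2:**
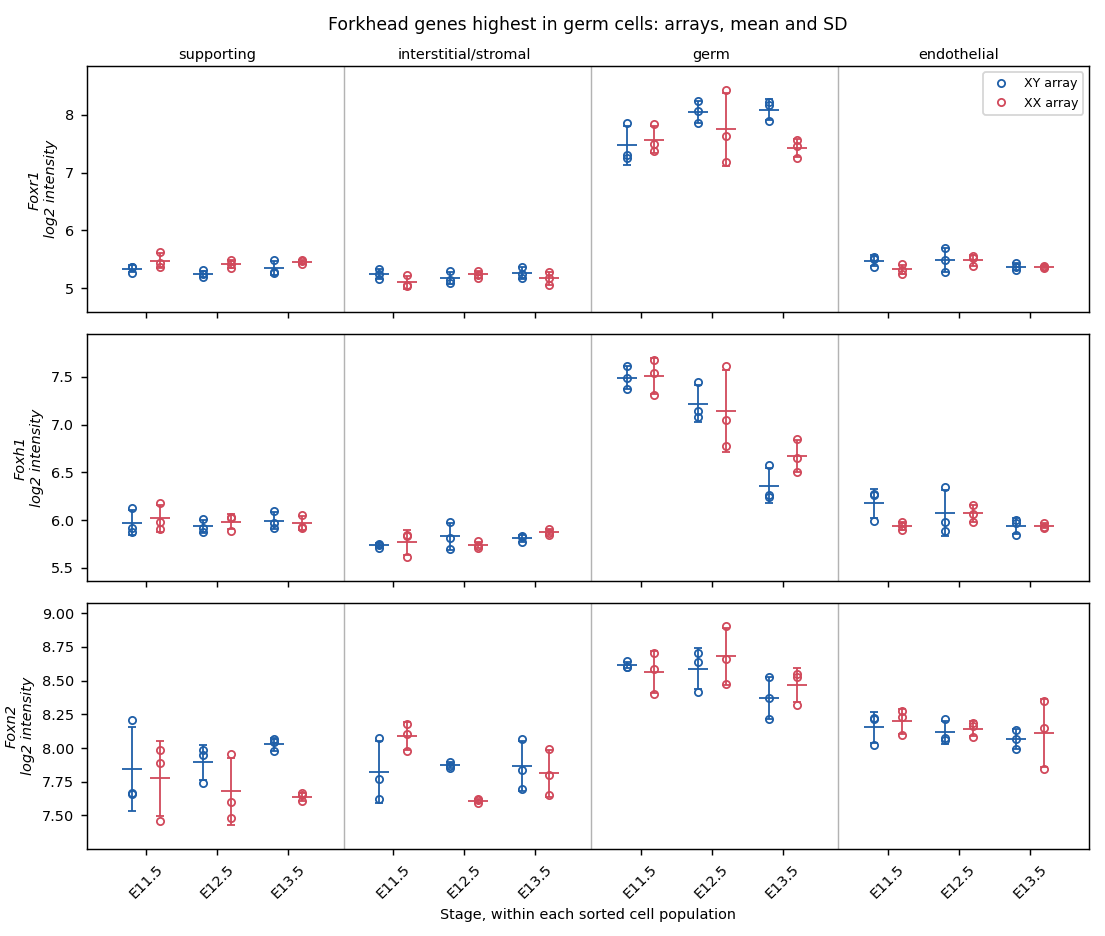
Log2 intensity of *Foxr1*, *Foxh1* and *Foxn2* in each array, by lineage, sex and stage, with the group mean and SD as bars. *Foxr1* is between 7.18 and 8.43 in germ cells and at most 5.70 in the other lineages, and *Foxh1* declines in germ cells of both sexes by E13.5.

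Supporting cells called 23 members, 14 higher and 9 lower, where 65.4% of all clusters were called. With arrays centred on their medians the split was 8 higher and 10 lower, so here too small differences depend on the scaling. With XY groups alone the count was 13. *Foxo3* was the single member whose highest level was in supporting cells in all 6 settings. It had 8.28, 8.52 and 8.81 (lowest, median and highest) in supporting cells, against 7.48, 8.00 and 8.44 elsewhere (difference 0.54, SE 0.04, adjusted p = 5.9e-19). *Foxp4*, a FOXP repressor, had 7.58, 8.13 and 9.26 in supporting cells, against 6.65, 7.61 and 8.33 elsewhere, so the ranges of both genes overlapped. The *Foxp4* difference of 0.72 (SE 0.04, adjusted p = 4.1e-22) was 1.08 in XY cells alone and 0.36 in XX cells alone. *Foxo6* was higher by 0.16 (adjusted p = 2.4e-05), a call that XX groups alone did not give (0.09, adjusted p = 0.095). *Foxc2* (−1.49) and *Foxm1* (−1.07) were the lowest against the other lineages, and 17 of 17 mitotic genes that FOXM1 drives were lower too (median −1.31, against 0.016 over all clusters). The *Foxm1* level was unequal within supporting cells. XY cells averaged 7.35 at E11.5, 8.65 at E12.5 and 8.52 at E13.5, against a median of 8.43 over the arrays of other lineages. XX supporting cells averaged 6.78 at E12.5 and 6.14 at E13.5.

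Endothelial cells called 21 members, 15 higher and 6 lower, where 72.2% of all clusters were called. *Foxc2* was higher by 1.76 and *Foxc1* by 0.82 (SE 0.10, adjusted p = 2.2e-10), both regulators of vessel formation. *Foxc1* had 5.76, 6.50 and 9.03 in endothelial cells, against 5.33, 5.69 and 6.64 elsewhere. Its highest value came from the second XY replicate at E11.5, whose group had 6.48, 9.03 and 6.94, and the other endothelial arrays reached 7.38 at most. *Foxp1* had 8.20, 8.71 and 9.39 in endothelial cells, against 6.76, 7.72 and 8.74 elsewhere (difference 0.98, SE 0.05, adjusted p = 1.6e-24). *Foxo1*, a FOXO factor needed in the vessels of the embryo, had 8.01, 8.55 and 8.89 against 7.30, 7.83 and 8.91 (difference 0.61, SE 0.05, adjusted p = 2.7e-16). The ranges of all 3 overlapped with other lineages. *Foxe1* was higher by 0.19 (adjusted p = 8.5e-06). Among vascular genes tied to FOXC and FOXO factors, 12 of 13 were higher in endothelial cells and 1 lower (median 1.09, against −0.0041 over all clusters), with *Tek* (4.48, SE 0.06), also an endothelial marker, and *Vegfc* (2.48, SE 0.06) at the top.

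Interstitial/stromal cells called 31 members, 9 higher and 22 lower, where 69.6% of all clusters were called. The lowest were *Foxr1* (−0.97), *Foxo1* (−0.58) and *Foxh1* (−0.56). The higher ones were led by *Foxc2* (1.43), *Foxd1* (0.94), *Foxn3* (0.60) and *Foxp2* (0.56, SE 0.04, adjusted p = 6.2e-19). *Foxp2*, a FOXP repressor best known from the brain, had 6.25, 6.57 and 8.14 in interstitial/stromal cells, against 5.90, 6.18 and 6.94 elsewhere, with overlap. The *Foxd1* and *Foxp2* values were unequal over the stages, and are given next.

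*Foxd1* was high at E11.5 and lower thereafter in somatic cells. In XY interstitial/stromal cells it had 8.93, 9.18 and 9.44 at E11.5, 6.05, 5.95 and 7.24 at E12.5 and 5.93, 6.05 and 5.78 at E13.5. In XX interstitial/stromal cells it had 10.17, 9.44 and 10.35, then 6.71, 7.23 and 6.45, then 6.37, 6.30 and 5.69. All arrays of E13.5 lay far below all of E11.5 in both sexes, and near 6, the limit used to choose genes for testing. The E13.5 minus E11.5 difference of *Foxd1* was −3.26 (SE 0.30, adjusted p = 1.6e-12) in XY and −3.87 (adjusted p = 1.7e-14) in XX interstitial/stromal cells. *Foxd1* and *Foxp2* were thus among 6 of 38 members called in XY cells (3 higher, 3 lower, 7.39% of all clusters) and 5 in XX cells (0 higher, 5 lower, 6.45%).

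In supporting cells *Foxd1* also differed between the sexes. XY supporting cells had 6.61, 7.39 and 7.90 at E11.5, 5.79, 5.71 and 6.14 at E12.5 and 6.01, 6.12 and 5.87 at E13.5. XX supporting cells had 8.71, 9.28 and 9.68, then 6.88, 6.56 and 6.71, then 6.34, 6.23 and 6.40. At E11.5 each XY array was below each XX array (−1.92, SE 0.30, adjusted p = 2.7e-06). At E12.5 the difference was −0.84 (adjusted p = 0.026), a call lost without XY replicate 1 or 2 or XX replicate 1 or 3 (−0.84 to −0.75), and at E13.5 −0.32 (adjusted p = 0.47). The stage difference was −1.30 (adjusted p = 7.1e-04) in XY and −2.90 (adjusted p = 4.3e-11) in XX supporting cells, and the change of the sex difference was itself called (1.60, SE 0.42, adjusted p = 0.0056). At E13.5 the arrays of both sexes, at 5.87 to 6.40, were near 6, the limit used to choose genes for testing. The part of this low level in the change was not tested. Interstitial/stromal cells at E11.5 differed by −0.80 between the sexes, which was not called (adjusted p = 0.57). In endothelial cells *Foxd1* was 1.35 lower at E13.5 in XY (adjusted p = 9.4e-04) and 1.34 lower in XX cells (adjusted p = 0.0030), and the XX call was lost without the second XX replicate of E11.5 (−0.82, adjusted p = 0.17), which had 8.20 where the others of its group had 6.84 and 6.48. That array was also highest of its group in the mean of 10 interstitial and mesenchymal genes (7.67, against 7.27 and 7.12) and of 6 smooth muscle genes (6.62, against 6.26 and 6.02), whose part in the *Foxd1* value was not tested. Germ cells stayed between 5.70 and 6.64 at all stages.

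*Foxp2* followed *Foxd1* in the stroma. It had 7.07, 7.07 and 7.63 in XY and 8.14, 7.80 and 7.81 in XX interstitial/stromal cells at E11.5, and each XY array was below each XX array (−0.66, SE 0.11, adjusted p = 5.5e-04). This was the single member called of 38 at that stage, where 0.238% of all clusters were called, and the call was lost when only interstitial/stromal arrays were fitted (adjusted p = 0.38). At E12.5 it had 6.39, 6.44 and 6.73 in XY and 6.25, 6.73 and 6.56 in XX cells, and at E13.5 6.43, 6.59 and 6.41 in XY and 6.47, 6.32 and 6.44 in XX cells, where the sexes overlapped. The stage difference was −0.78 (adjusted p = 8.0e-07) in XY and −1.51 (adjusted p = 1.2e-14) in XX cells, and the sex difference changed between the stages (0.73, SE 0.16, adjusted p = 0.0026, the single member called where 3.19% of all clusters were). In XX endothelial cells *Foxp2* was 0.52 lower at E13.5 (adjusted p = 0.0026), and it was also called lower in XY endothelial cells. Endothelial samples of E11.5 kept part of the mesonephros, whose part in the endothelial stage differences of *Foxp2* and *Foxd1* was not tested.

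*Foxc2* was highest in endothelial cells at E11.5, with 10.54, 10.31 and 10.29 in XY and 10.34, 10.30 and 10.24 in XX cells. At E12.5 it had 8.86, 8.69 and 8.72 in XY and 8.74, 8.82 and 8.92 in XX cells, and at E13.5 9.45, 9.37 and 8.71 in XY and 9.35, 8.57 and 8.55 in XX cells. All later arrays were below those of E11.5 (E13.5 minus E11.5 −1.20, adjusted p = 0.0020, in XY and −1.47, adjusted p = 4.3e-04, in XX cells). The E11.5 samples kept part of the mesonephros and the later ones did not, and its part in this difference was not tested. The 10 mesonephric and epithelial genes averaged 6.65 to 6.85 per array in XY and 6.70 to 6.72 in XX endothelial cells at E11.5, and 6.63 to 6.80 in XY and 6.70 to 6.88 in XX at E13.5. The lymphatic factor *Prox1*, on the vascular list, fell alongside, by 1.21 (SE 0.17) in XY and 1.75 (SE 0.17) in XX cells. Stage called 8 of 38 members in XY endothelial cells (2 higher, 6 lower, 13.3% of all clusters) and 3 in XX (0 higher, 3 lower, 3.69%). *Foxi3* (−0.35) and *Foxf1* (−0.25) were among the XY calls, and both were lost without the second XY replicate of E11.5 (−0.22, adjusted p = 0.28, and −0.15, adjusted p = 0.40) and without the first or second XY replicate of E13.5. A second cluster of *Foxf1* was called in the opposite direction in the same comparison (0.75, limma adjusted p = 0.0040). The XY count was 4 to 12 with single arrays left out, and the *Foxc1* difference there (−0.97, adjusted p = 0.022) was −0.20 (adjusted p = 0.75) without the second XY replicate of E11.5, and was lost also without the first or second XY replicate of E13.5 (−0.97 and −0.73).

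*Foxc2* differed between the sexes in the stroma and in supporting cells. XY interstitial/stromal cells had 9.51, 9.34 and 9.91 at E11.5, 8.81, 9.16 and 9.14 at E12.5 and 8.81, 9.73 and 9.27 at E13.5. XX cells had 9.88, 9.57 and 10.24, then 7.76, 8.64 and 9.63, then 8.47, 7.67 and 8.71, so that XY arrays lay above XX arrays at E13.5 only (0.99, SE 0.28, adjusted p = 0.015), a call lost without the second XY (0.76) or the second XX replicate (0.68), or with interstitial/stromal arrays alone (adjusted p = 0.14). The XX level fell with stage (−1.62, adjusted p = 6.2e-05). In XY supporting cells *Foxc2* had 8.13, 7.96 and 7.94 at E12.5 and 7.51, 7.68 and 7.58 at E13.5, against 6.80, 6.57 and 6.29 and 6.52, 6.60 and 6.24 in XX supporting cells. The XY arrays were all higher, by 1.46 (SE 0.28, adjusted p = 4.0e-05) and 1.14 (adjusted p = 0.0013). Interstitial and mesenchymal genes averaged 7.13 to 7.39 per array in XY and 7.02 to 7.16 in XX supporting cells at E12.5, with 2 of 10 higher and 1 lower, and endothelial genes 6.23 to 6.25 in XY and 6.21 to 6.32 in XX, with 0 of 12 called. Their part in the *Foxc2* difference was not tested.

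**Figure D3:**
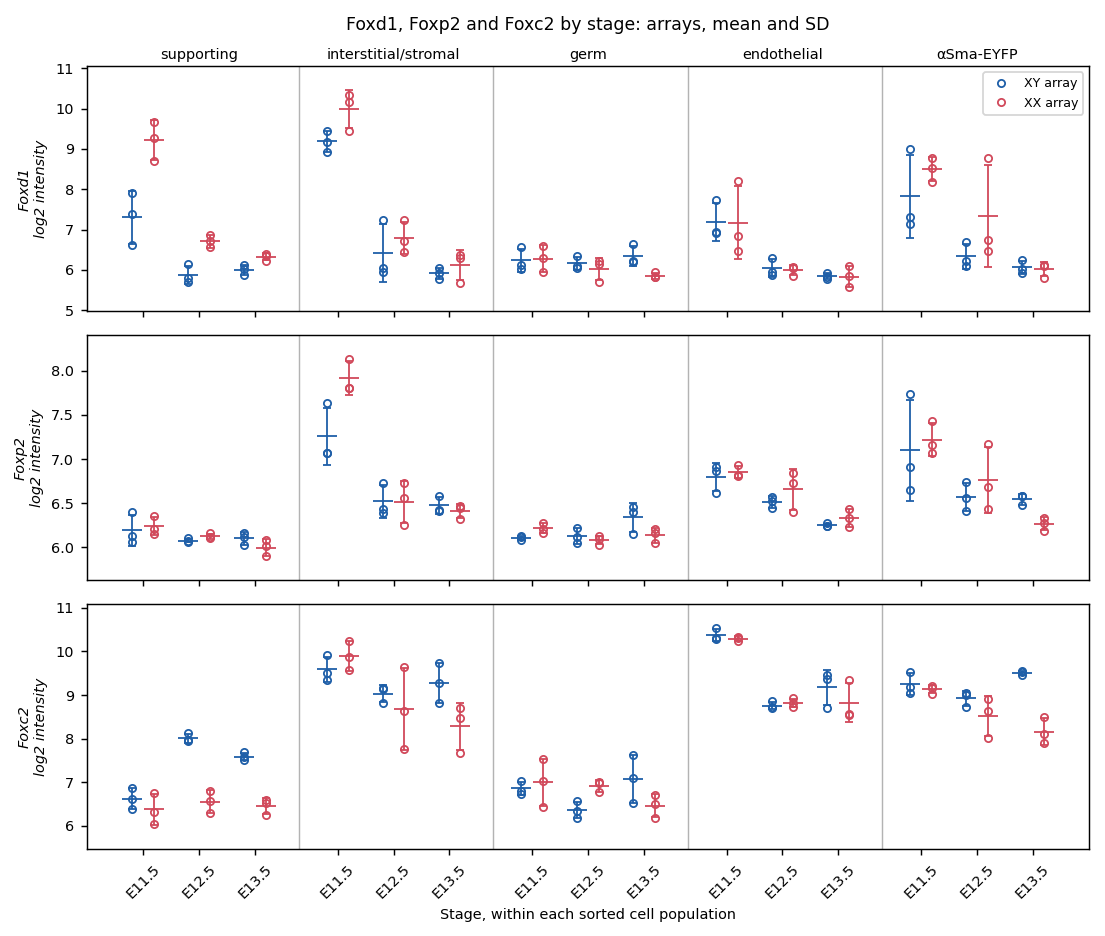
Log2 intensity of *Foxd1*, *Foxp2* and *Foxc2* in each array by population, sex and stage, *αSma-EYFP* cells included, with the group mean and SD as bars. *Foxd1* reaches 10.35 in XX interstitial/stromal cells at E11.5 and is at most 6.64 in every array at E13.5, and *Foxp2* is highest in the same group.

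Sex differences were most frequent in supporting cells, among all clusters as among members. At E12.5 and E13.5 the sexes of this lineage were also sorted by different reporters. XY minus XX called 5 of 38 members at E11.5 (2 higher, 3 lower), 11 at E12.5 (9 higher, 2 lower) and 9 at E13.5 (6 higher, 3 lower), where 9.59%, 30.7% and 29.4% of all clusters were called. *Foxm1* differed most. XY supporting cells had 8.32, 7.19 and 6.53 at E11.5, 8.46, 8.86 and 8.62 at E12.5 and 8.33, 8.65 and 8.59 at E13.5. XX supporting cells had 6.79, 6.35 and 6.82, then 6.57, 6.85 and 6.90, then 6.33, 6.14 and 5.96. At E11.5 the arrays overlapped and the XY arrays were far apart, and the difference of 0.70 was lost without the first XY replicate (0.21, adjusted p = 0.65) or the second XX replicate (0.54). At E12.5 and E13.5 each XY array was above each XX array, by 1.87 (SE 0.21, adjusted p = 1.9e-10) and 2.38 (adjusted p = 8.9e-14) in the mean. The change of the sex difference was called (1.69, SE 0.30, adjusted p = 2.9e-05), as was the rise in XY cells (E13.5 minus E11.5 1.17, adjusted p = 2.1e-05, and 0.77 without the third XY replicate of E11.5).

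Genes that FOXM1 drives in mitosis moved with it in these cells. In supporting cells 8 of 17 were higher in XY at E11.5, 16 at E12.5 and 16 at E13.5, and 0 lower, with median differences of 0.43, 2.34 and 2.06, against −7.8e-04, −0.0016 and −0.026 over all clusters. Of all clusters 9.59%, 30.7% and 29.4% were called in these comparisons. *Bub1*, a spindle checkpoint kinase (3.20, SE 0.21), and *Cenpf*, a kinetochore protein (3.09, SE 0.22), led at E12.5, and *Cdk1*, the mitotic kinase (3.31, SE 0.19), and *Top2a*, which untangles DNA (3.22, SE 0.15), at E13.5. Between E11.5 and E13.5 16 of 17 rose in XY supporting cells, and in XX supporting cells 8 fell and 0 rose. Supporting cells called 6 of 38 forkhead members by stage in XY (5 higher, 1 lower, 24.2% of all clusters) and 3 in XX (1 higher, 2 lower, 12%).

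Outside supporting cells *Foxm1* was higher in XY interstitial/stromal cells at E13.5, with 8.44, 8.80 and 8.70, against 7.81, 7.69 and 7.93 in XX (0.84, SE 0.21, adjusted p = 0.0048, no overlap), and 13 of the 17 mitotic genes were higher there (median 0.73, against −0.0017 over all clusters). In XX interstitial/stromal cells *Foxm1* was 0.69 lower at E13.5 than at E11.5 and 15 of 17 mitotic genes fell (median −0.64, against 0.0028 over all clusters). Of all clusters 6.45% were called in this stage comparison, and 8.67% between the sexes of interstitial/stromal cells at E13.5. The *Foxm1* call was lost without any of the 6 arrays (−0.76 to −0.61). Germ cells showed no call of *Foxm1* by sex or stage, with arrays between 8.12 and 8.71 over both sexes and all stages.

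*Foxp4* was higher in XY supporting cells at all 3 stages. XY cells had 8.31, 8.24 and 8.35 at E11.5, 8.82, 9.16 and 9.26 at E12.5 and 8.91, 9.09 and 8.62 at E13.5. XX cells had 7.72, 7.58 and 7.69, then 7.88, 8.01 and 7.92, then 7.93, 7.86 and 7.97. The XY arrays were above the XX arrays at each stage, by 0.64 (SE 0.12, adjusted p = 1.6e-04), 1.14 (adjusted p = 5.3e-11) and 0.95 (adjusted p = 8.2e-09). *Foxp1* ran the other way. It had 7.28, 7.48 and 7.80 in XY and 7.89, 7.96 and 7.74 in XX supporting cells at E11.5, with overlap, 7.43, 7.47 and 7.34 in XY and 8.58, 8.11 and 8.10 in XX at E12.5, and 7.63, 7.49 and 7.49 in XY and 8.37, 8.72 and 8.49 in XX at E13.5. The later arrays did not overlap (−0.85, SE 0.15, adjusted p = 7.2e-06, and −0.99, adjusted p = 3.1e-07). The level in XX supporting cells rose by 0.66 between E11.5 and E13.5 (adjusted p = 9.8e-04), and the change of the sex difference (−0.65, adjusted p = 0.031) lost its call without any of 5 arrays (−0.63 to −0.51).

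*Foxa3*, an endoderm factor, crossed over. At E11.5 it had 5.73, 5.47 and 5.63 in XY and 6.25, 5.77 and 6.28 in XX supporting cells. At E12.5 it had 6.18, 6.45 and 6.28 in XY and 5.62, 5.73 and 5.93 in XX cells, and at E13.5 6.19, 6.96 and 6.54 in XY and 5.60, 5.81 and 5.81 in XX cells. XY arrays were below XX arrays at E11.5 (−0.49, adjusted p = 0.021) and above them at E12.5 (0.54) and E13.5 (0.83), and the change of the sex difference was called (1.32, SE 0.21, adjusted p = 2.9e-06). The E11.5 call was lost without the second XY or the first or the third XX replicate (−0.42 to −0.40), or with supporting cell arrays alone (adjusted p = 0.098). At each stage the arrays of the lower sex were all under 6, the limit used to choose genes for testing. The interaction called 4 of 38 members in supporting cells, where 13.4% of all clusters were called.

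*Foxj3* had 8.44, 9.30 and 9.17 in XY and 9.52, 9.72 and 9.71 in XX supporting cells at E11.5, without overlap (−0.68, adjusted p = 0.010), a call that was lost without the first XY replicate (−0.41, adjusted p = 0.25). *Foxj3* also fell in XX cells by E13.5 (−0.70, adjusted p = 0.0061). *Foxk1* (−0.36) and *Foxj1* (−0.24) were lower in XY cells at E13.5, and each call was lost without any of 4 and 2 arrays (−0.35 to −0.25 for *Foxk1* and −0.21 to −0.20 for *Foxj1*). *Foxc1* (0.77 at E12.5), *Foxn2* (0.39 at E13.5) and *Foxq1* (0.31 at E13.5) were higher in XY cells, each with its call lost when single arrays were left out. Of 7 tested genes of motile cilia, which FOXJ1 drives, 0 were higher and 1 lower in XY cells at E13.5, and 5 were higher in supporting cells than in other lineages (*Rsph1* by 0.43, SE 0.07, and *Ccdc39* by 0.36, SE 0.05), with a median of 0.10 against 0.02 over all clusters. In these 2 comparisons 29.4% and 65.4% of all clusters were called.

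*Foxo* genes were higher in XY supporting cells at E12.5, where *Foxo1* (0.48), *Foxo4* (0.44), *Foxo3* (0.38) and *Foxo6* (0.31) were called. Calls of *Foxo1* and *Foxo6* were lost without single arrays, that of *Foxo1* without the second XY replicate (0.41, adjusted p = 0.064) and that of *Foxo6* without the first XY or the first or the third XX replicate (0.20 to 0.25). Genes that FOXO factors induce went lower more often than higher in the same comparison, 11 of 19 against 2 (median −0.58, against −0.0016 over all clusters). *Pdk4*, a switch of fuel use (−3.02, SE 0.30), and *Cdkn1b*, a cell cycle inhibitor that is also on the list of pre-granulosa genes (−2.91, SE 0.31), were the lowest. At E13.5 9 were lower and 1 higher, where 29.4% of all clusters were called, and no *Foxo* gene was called between the sexes of supporting cells. Of 12 partners and corepressors of forkhead proteins, 4 were higher and 3 lower in XY cells at E12.5 (median 0.10), among them *Tle4* (0.99, SE 0.14) and *Tle1* (−0.85, SE 0.13). The share of all clusters called between the sexes at E12.5 was 30.7%.

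**Figure D4:**
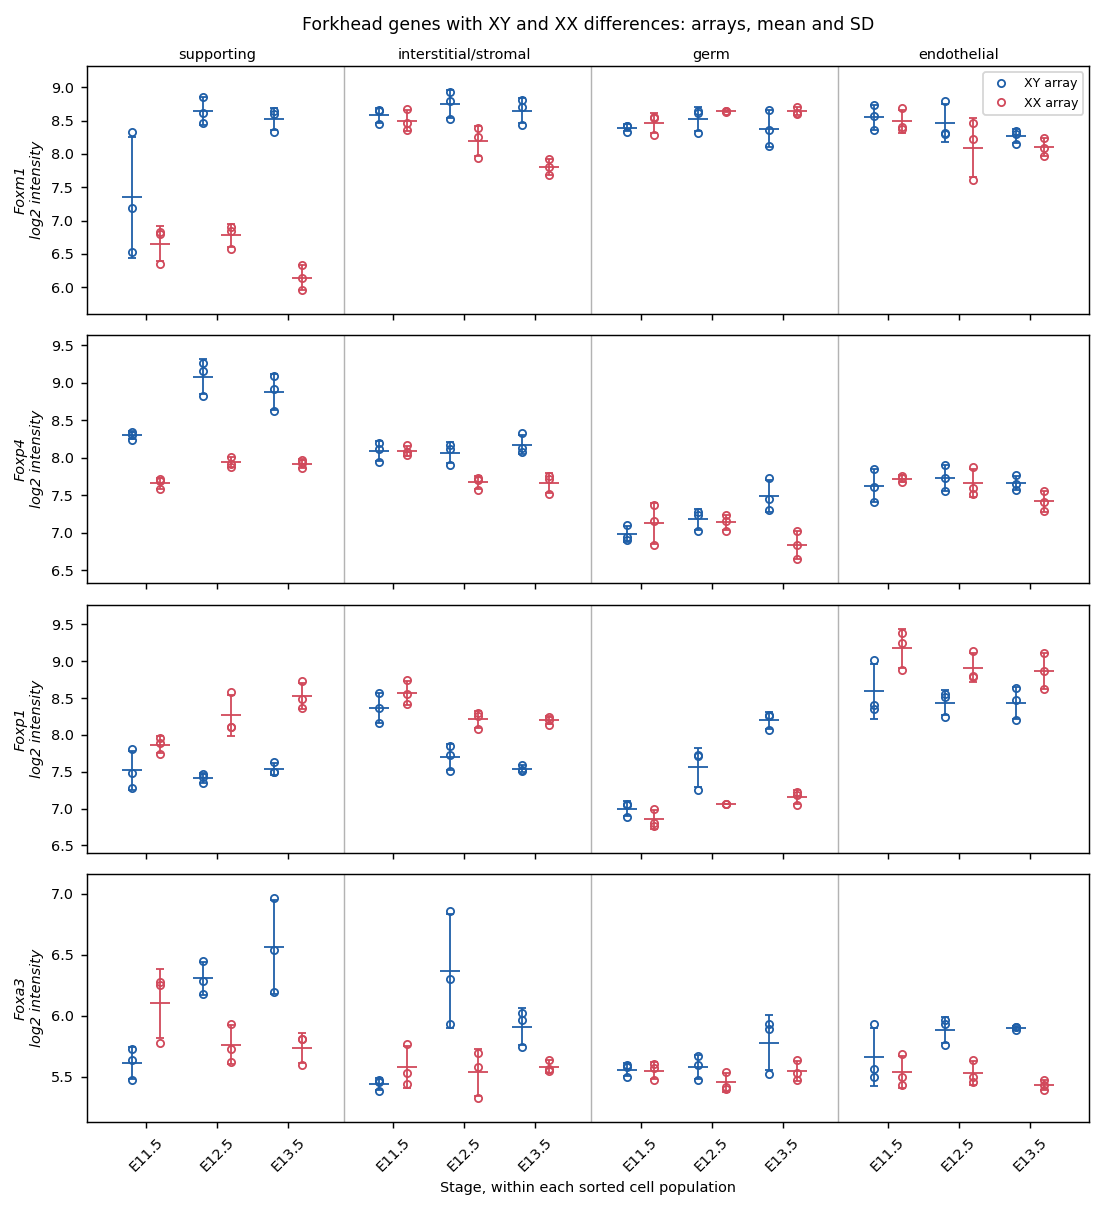
Log2 intensity of *Foxm1*, *Foxp4*, *Foxp1* and *Foxa3* in each array, with XY beside XX cells of each lineage and stage and the group mean and SD as bars. In supporting cells *Foxm1* and *Foxp4* are higher and *Foxp1* lower in XY than in XX cells at E12.5 and E13.5, and at E13.5 *Foxp1* is higher in XY germ cells.

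In interstitial/stromal cells XY minus XX called 4 of 38 members at E12.5 (3 higher, 1 lower) and 5 at E13.5 (4 higher, 1 lower), where 5.92% and 8.67% of all clusters were called. *Foxp1* had 7.51, 7.72 and 7.86 in XY and 8.08, 8.29 and 8.26 in XX cells at E12.5, and 7.51, 7.59 and 7.53 in XY and 8.25, 8.14 and 8.20 in XX at E13.5, without overlap (−0.51, adjusted p = 0.025, and −0.65, SE 0.15, adjusted p = 0.0015). *Foxp4* had 8.17, 7.91 and 8.12 in XY and 7.73, 7.71 and 7.57 in XX cells at E12.5, and 8.13, 8.33 and 8.08 in XY and 7.76, 7.72 and 7.51 in XX at E13.5 (0.40, adjusted p = 0.042, and 0.51, SE 0.12, adjusted p = 0.0030). Both genes thus kept in the stroma the direction they had in supporting cells. The E12.5 calls were lost without any of 4 arrays for *Foxp1* (−0.53 to −0.42) and 5 for *Foxp4* (0.34 to 0.43), and those at E13.5 were called in all fits with an array left out. *Foxp1* was also 0.82 lower at E13.5 than at E11.5 in XY cells (adjusted p = 6.1e-05).

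*Foxa3* had 6.30, 6.86 and 5.93 in XY and 5.32, 5.58 and 5.70 in XX interstitial/stromal cells at E12.5 (0.83, SE 0.15, adjusted p = 4.5e-05). The XY arrays were all higher and were spread widely. Its stage difference in XY cells (0.47, adjusted p = 0.036) was lost without any of 5 arrays (0.41 to 0.49). The group means of that stage difference, 5.91 at E13.5 and 5.44 at E11.5, were both under 6, the limit used to choose genes for testing. Sertoli genes were also higher in XY interstitial/stromal cells, 13 of 17 at E12.5 and 9 of 17 at E13.5, each with 1 lower. They averaged 8.69 to 8.80 per array in XY and 7.30 to 7.34 in XX interstitial/stromal cells at E12.5, and 9.88 to 9.93 in XY supporting cells. Their part in the *Foxa3*, *Foxp4* and *Foxp1* differences of the stroma was not tested. *Foxn3* was 0.51 higher at E13.5 than at E11.5 in XY cells (adjusted p = 0.0074), which was lost without the second XY replicate of E11.5 (0.46, adjusted p = 0.055) and was not called in the second cluster of the gene (0.38, adjusted p = 0.067).

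Germ cells differed late, among all clusters as among members. At E11.5 limma called 0 of 38 members, with 0 at an unadjusted p under 0.05, where 0.202% of all clusters were called. At E12.5 it called 1 (4.48% of all clusters) and at E13.5 5 (5 higher, 0 lower, 21.1%). *Foxp1* had 7.04, 6.89 and 7.07 in XY and 6.80, 7.0 and 6.76 in XX germ cells at E11.5, 7.72, 7.71 and 7.25 in XY and 7.06, 7.07 and 7.07 in XX at E12.5, and 8.06, 8.27 and 8.25 in XY and 7.04, 7.19 and 7.23 in XX at E13.5. The XX arrays stayed between 6.76 and 7.23 over the stages and the XY arrays rose. The difference was 0.50 at E12.5 (adjusted p = 0.039, lost without any of 5 arrays, 0.42 to 0.50) and 1.04 at E13.5 (SE 0.15, adjusted p = 2.1e-07), and its change since E11.5 was called (0.90, SE 0.21, adjusted p = 0.0025). The XY stage difference was 1.20 (adjusted p = 8.4e-09). XY supporting cells at E13.5, at 7.49 to 7.63, were below every XY germ cell array of that stage.

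The *Foxp1* sex difference thus had opposite signs in germ cells and supporting cells at E13.5. A contrast of both differences, added after the levels were seen, gave 2.03 (SE 0.21, adjusted p = 2.6e-11). It also called *Foxm1* (−2.64), *Foxk1* (0.79), *Foxr1* (0.78), *Foxa3* (−0.60) and *Foxn2* (−0.48), in all 6 of 38 members where 27.4% of all clusters were called, and the calls of *Foxa3* and *Foxn2* were lost without any of 4 and 10 arrays (−0.55 to −0.40 and −0.51 to −0.40).

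*Foxr1* had 7.31, 7.86 and 7.26 in XY and 7.49, 7.84 and 7.38 in XX germ cells at E11.5, 8.23, 8.06 and 7.85 in XY and 7.18, 8.43 and 7.63 in XX at E12.5, and 8.17, 8.22 and 7.88 in XY and 7.46, 7.25 and 7.56 in XX at E13.5. The sexes separated at E13.5 only (0.67, SE 0.15, adjusted p = 6.0e-04, and 0.054 with germ cell arrays alone). *Foxp4* had 7.73, 7.31 and 7.45 in XY and 6.65, 7.03 and 6.84 in XX germ cells at that stage (0.65, SE 0.12, adjusted p = 4.8e-05), again without overlap. *Foxo1* had 8.57, 8.91 and 8.65 in XY and 8.48, 8.05 and 7.83 in XX cells (0.59, adjusted p = 0.0019). The change of the sex difference since E11.5 was called for *Foxp4* (0.79, adjusted p = 0.0012), *Foxr1* (0.76, adjusted p = 0.013) and *Foxo1* (0.67, adjusted p = 0.030), which with *Foxp1* made 4 of 38, where 9.11% of all clusters were called. The *Foxr1* and *Foxo1* changes were lost without any of 4 and 6 arrays (0.63 to 0.68 and 0.52 to 0.65). Sertoli genes averaged 6.95 to 7.11 per array in XY and 6.63 to 6.68 in XX germ cells at E13.5, with 2 of 17 higher, and their part in the *Foxp4* and *Foxo1* differences was not tested.

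*Foxk1* was the remaining call at E13.5 (0.43), lost without the first XY or the second or the third XX replicate (0.38 to 0.40). By stage, germ cells called 8 of 38 members in XY (6 higher, 2 lower, 16.6% of all clusters) and 3 in XX (1 higher, 2 lower, 25.4%). *Foxj2* was higher at E13.5 in XY (0.67, adjusted p = 1.9e-05) and XX cells (0.41, adjusted p = 0.0076). *Foxn3* was 0.77 higher in XY cells (adjusted p = 9.2e-06), which its second cluster did not call (0.24, adjusted p = 0.25). *Foxk2* was lower in XY (−0.30, adjusted p = 0.0498) and XX cells (−0.38, adjusted p = 0.0063), with the XY call lost without any of 4 arrays (−0.31 to −0.21) and the XX call without the second XX replicate of E11.5 (−0.30). Of 11 kinases, phosphatases and scaffolds that regulate FOXO proteins, 6 were higher and 3 lower in XY germ cells at E13.5 (median 0.50, against 0.02 over all clusters), with *Sgk3* (1.19, SE 0.20) and *Pdpk1* (−0.92, SE 0.17) the furthest. Among 19 FOXO-induced genes 3 were higher and 2 lower. The share of all clusters called in this comparison was 21.1%.

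*Foxs1*, a forkhead gene known from the neural crest and from cells around vessels, was called between the sexes in interstitial/stromal and endothelial cells, and not in supporting or germ cells. XY interstitial/stromal cells had 7.40, 7.54 and 7.61 at E12.5, against 6.88, 6.95 and 7.17 in XX (0.52, SE 0.10, adjusted p = 4.3e-04), and 7.44, 7.62 and 7.60 at E13.5, against 7.04, 7.09 and 7.11 in XX (0.47). XY endothelial cells had 7.33, 7.70 and 7.33 at E12.5, against 6.84, 6.87 and 6.97 in XX (0.56, adjusted p = 4.4e-04), and 7.42, 7.45 and 7.43 at E13.5, against 6.92, 6.83 and 7.05 in XX (0.50, adjusted p = 7.7e-04). No arrays of the sexes overlapped in these 4 comparisons, while at E11.5 they did in both lineages. When only endothelial arrays were fitted, the E12.5 call was lost (adjusted p = 0.052). *Foxs1* rose with stage in XY interstitial/stromal (0.62, adjusted p = 1.8e-05) and XY endothelial cells (0.43, adjusted p = 0.0030, and 0.052 with endothelial arrays alone).

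Fetal Leydig genes were higher in the same groups, 6 of 6 in XY against XX interstitial/stromal and endothelial cells at E12.5 and E13.5. Their mean per array was 7.80 to 8.76 in XY and 6.62 to 6.80 in XX interstitial/stromal cells at E12.5, and 9.79 to 10.58 in XY and 6.72 to 6.84 in XX at E13.5. In endothelial cells it was 8.77 to 9.08 in XY and 6.67 to 6.84 in XX at E12.5, and 10.72 to 11.10 in XY and 6.72 to 6.89 in XX at E13.5. Genes of the hedgehog pathway, which carries the signal from Sertoli cells to Leydig cell precursors, were called in part. In XY interstitial/stromal cells 5 of 11 were higher and 1 lower at E12.5 and 4 higher and 1 lower at E13.5 (medians −0.02 and 0.09, where 5.92% and 8.67% of all clusters were called), with *Hhip* (3.32, SE 0.14) and *Ptch1*, also on the interstitial list (2.64, SE 0.21), the highest at E13.5, and in XY endothelial cells at E13.5 3 were higher and 0 lower (*Hhip* 1.78, *Ptch1* 1.21, median 0.05, where 5.31% of all clusters were called). By the study's account the XY *Flk1-mCherry* sorts hold Leydig cells after E11.5, so the endothelial differences are those of a mixed sort. The part of Leydig cells in the *Foxs1* differences was not tested.

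**Figure D5:**
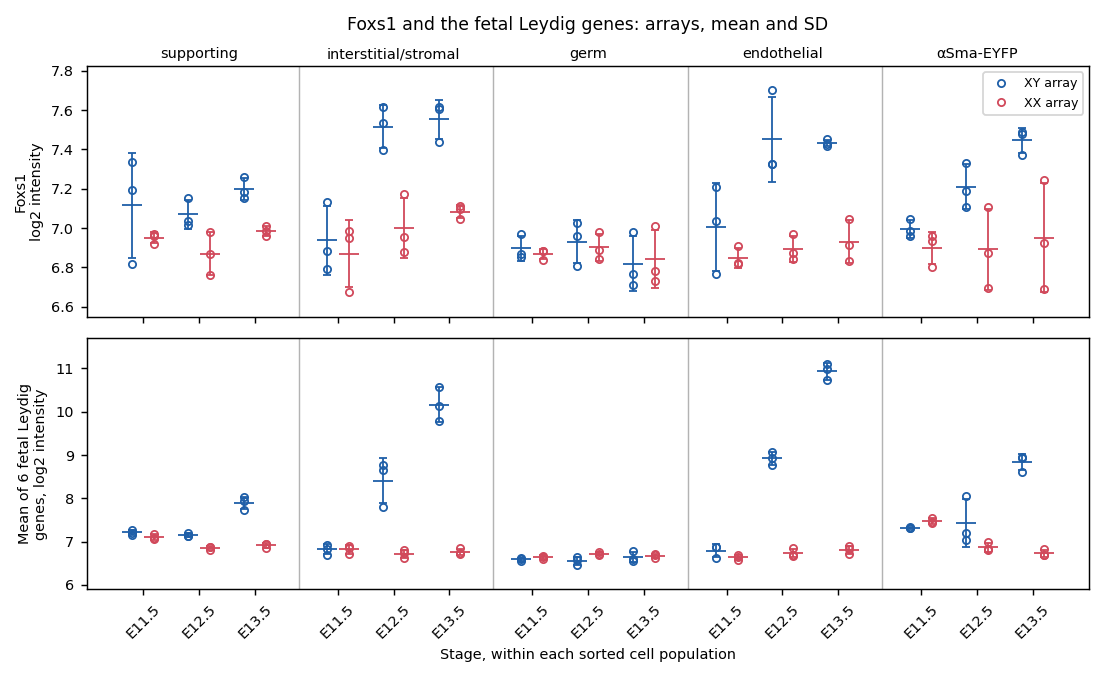
Log2 intensity of *Foxs1* and the mean of 6 fetal Leydig genes in each array, by population, sex and stage, with the group mean and SD as bars. Both are higher in XY than in XX interstitial/stromal, endothelial and *αSma-EYFP* cells at E13.5, with *Foxs1* between 7.37 and 7.62 in the XY arrays of these populations.

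Endothelial cells had few other sex differences. XY minus XX called 1 of 38 members at E11.5, 1 at E12.5 and 3 at E13.5 (3 higher, 0 lower), where 0.981%, 3.55% and 5.31% of all clusters were called. *Foxp1* was lower in XY cells at E11.5 (9.02, 8.35 and 8.41, against 9.25, 8.88 and 9.39 in XX, −0.58), with overlap, and the call was lost without the second or the third XY or the first or the third XX replicate (−0.54 to −0.46). *Foxa3* had 5.91, 5.88 and 5.91 in XY and 5.43, 5.39 and 5.47 in XX cells at E13.5 (0.47, adjusted p = 0.047, lost without any of the 6 arrays, 0.45 to 0.48). All of these *Foxa3* values were under 6, the limit used to choose genes for testing. *Foxn3* had 11.35, 11.52 and 11.10 in XY and 10.40, 11.05 and 11.26 in XX cells (0.42), with overlap, and this call was lost without the first XX replicate (0.17, adjusted p = 0.70) or the first or second XY replicate (0.41 and 0.32). The change of its sex difference (0.69, adjusted p = 0.029, the single one of 38 called, 2.6% of all clusters) was lost without any of 6 arrays (0.43 to 0.67). The *Foxn3* stage difference in XY cells (0.49, adjusted p = 0.0084) was lost without the second XY replicate of E11.5 (0.31) or of E13.5 (0.39). Its second cluster gave 0.20 for that stage difference (adjusted p = 0.33) and 0.30 for the sex difference at E13.5 (adjusted p = 0.23), neither called, and 0.72 for the change of the sex difference (adjusted p = 0.017), which was. Fetal Leydig genes averaged 10.72 to 11.10 per array in XY and 6.72 to 6.89 in XX endothelial cells at E13.5, and 6.62 to 6.89 in XY at E11.5, and the part of such cells in the *Foxa3* and *Foxn3* differences was not tested.

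In *αSma-EYFP* cells, fitted with all 90 sorted-cell arrays, limma called 0 of 38 members between the sexes at E11.5 (0 at an unadjusted p under 0.05), 1 at E12.5 (0 higher, 1 lower) and 2 at E13.5 (2 higher, 0 lower), where 0.249%, 5.15% and 5.73% of 16859 clusters were called. *Foxp1* had 7.70, 7.67 and 7.85 in XY and 8.11, 8.26 and 8.47 in XX cells at E12.5 (−0.53, SE 0.14, adjusted p = 0.0098), lost without the second XY (−0.50, adjusted p = 0.057) or the third XX replicate (−0.44, adjusted p = 0.12). *Foxc2* had 9.52, 9.54 and 9.45 in XY and 7.90, 8.49 and 8.10 in XX cells at E13.5 (1.34, SE 0.27, adjusted p = 2.4e-04). *Foxs1* had 7.49, 7.37 and 7.48 in XY and 6.69, 6.92 and 7.24 in XX cells (0.50, SE 0.11, adjusted p = 9.7e-04), lost without the first XX replicate (0.36, adjusted p = 0.060). None of these groups overlapped, and each gene had the direction it had in interstitial/stromal cells. *Foxd1* varied within groups, with 7.15, 9.01 and 7.31 in XY cells at E11.5 and 6.75, 8.78 and 6.47 in XX cells at E12.5, and its sex difference at E12.5 was not called (−1.0, SE 0.36, adjusted p = 0.11).

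Over the 12 sex comparisons in the 4 lineages 20 of 38 members were called at least once and 18 never, with 46 calls in all. *Foxp1* had 7 calls (2 higher and 5 lower in XY), *Foxp4* 6 and *Foxa3* 5. Over the 8 stage comparisons 18 were called at least once and 20 never, with 42 calls, led by *Foxd1* with 6, all lower at E13.5. Single comparisons called 0.202% to 30.7% of all clusters by sex and 3.69% to 25.4% by stage. The share of all clusters called at least once was not computed, so these totals do not set the family apart from other genes. *Foxa1*, *Foxa2*, *Foxb1*, *Foxb2*, *Foxd2*, *Foxd3*, *Foxd4*, *Foxe1*, *Foxe3*, *Foxi1*, *Foxi2*, *Foxn4* and *Foxp3* had no call of either kind. *Foxf1*, a hedgehog-responsive factor of mesenchyme, gave different readings in its 2 clusters, which correlated at 0.23 over the 90 arrays. The cluster used here, with the higher mean (6.89), had a span of 0.50. The other (mean 6.09) had 6.74, 6.49 and 6.89 in XY and 7.46, 7.87 and 6.96 in XX endothelial cells at E13.5 (−0.72, SE 0.19, adjusted p = 0.011), and 6.08, 6.43 and 6.77 in XY and 5.66, 5.67 and 5.66 in XX interstitial/stromal cells at that stage (0.76, adjusted p = 0.0036). The clusters of *Foxn3* correlated at 0.79.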

How the data were processed

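RNA of sorted cells was measured on Affymetrix Mouse Gene 1.0 ST arrays. The authors scanned the arrays (GCOS and Partek are named in the submitters' processing notes) and deposited log2 intensities of 91 arrays after RMA background correction with adjustment for GC content and probe sequence, quantile normalization and median polish. Values thus compare 1 gene across arrays, and the number of arrays limits the precision. Of 35557 transcript clusters, 1621 name several genes and 12147 none, by the platform annotation, and these were left out. A cluster was tested where it passed 6 on the log2 scale in 2 or more arrays of a group of 3. Group means were fitted with limma 3.58.1 in R 4.3.3 (lmFit and eBayes), over 72 arrays for the 4 lineages and 90 for *αSma-EYFP* cells, and p-values were adjusted with Benjamini-Hochberg over all tested clusters. The fit was tested on simulated data. Genes were named by rule, as the largest called differences, up to 3 in each direction by sex (with no overlap of arrays) and by stage, up to 4 higher ones by lineage (where the lineage had to be highest in at least 5 of 6 settings), every called change of a sex difference, and up to 2 genes of a list. Other genes were picked after their values were seen. The members, gene lists and tests were chosen with earlier results of these data known. Alternatives were another filter, other scalings, a mean-variance trend, the study's own limits, a replicate block and leaving out each array. A whole newborn mouse array entered no comparison, and 0 columns of per-sample values were left unused. The name of the reporter of interstitial/stromal cells is not reported here.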

Additional observations from a re-analysis of the deposited data

Results flagged for a closer look

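Results are listed here because the effect of sex differed between stages or lineages by a test of that difference in limma. Between E11.5 and E13.5 the XY minus XX difference changed in supporting cells for *Foxm1* (1.69), *Foxd1* (1.60), *Foxa3* (1.32) and *Foxp1* (−0.65). In interstitial/stromal cells it changed for *Foxp2* (0.73). In germ cells it changed for *Foxp1* (0.90), *Foxp4* (0.79), *Foxr1* (0.76) and *Foxo1* (0.67), and in endothelial cells for *Foxn3* (0.69).

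At E13.5 the XY minus XX difference of germ cells minus that of supporting cells was called for *Foxp1* (2.03), *Foxk1* (0.79), *Foxr1* (0.78), *Foxn2* (−0.48), *Foxa3* (−0.60) and *Foxm1* (−2.64). This contrast was added after the levels were seen.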

How the results depend on the processing

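None of the 93 named differences changed direction under the alternatives. Several of these, such as another filter, the mean-variance trend and the study's own limits, leave the estimates as they are and could not change a direction. Most named differences were also chosen for their size. The split of called members changed direction with arrays centred on their medians, to 18 higher and 10 lower in germ cells (7 and 16 as reported) and 8 higher and 10 lower in supporting cells (14 and 9), and with quantile normalization again to 15 and 13 in germ cells. Of 2163 values of the named differences, 2019 kept their call and 144 lost it, and 25 of the 93 lost it without some array.

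Counts of members that moved by over 1.5 times are given with the reported count in parentheses. With XY groups alone, 13 (23) were called in supporting and 15 (23) in germ cells against the other lineages. With all 90 arrays fitted, the E12.5 endothelial sex difference called 2 (1). With arrays centred on their medians, the endothelial sex difference called 0 (1) at E11.5, 2 (1) at E12.5 and 1 (3) at E13.5, stage in XX germ cells 5 (3), and *αSma-EYFP* at E12.5 2 (1). Quantile normalization again gave 0 (1) and 2 (1) for the endothelial sex difference at E11.5 and E12.5, 6 (3) for XX germ cells by stage and 0 (1) for the change of the endothelial sex difference. With no filter the E13.5 endothelial sex difference called 1 (3). With only the arrays of the lineage, the sex difference called 3 (5) in supporting, 0 (1) in interstitial/stromal and 0 (1) in endothelial cells at E11.5 and 0 (1) in endothelial cells at E12.5, and stage 3 (8) in XY endothelial cells. At the study's own limits (unadjusted p under 0.05 and 1.5-fold), lineages called 4 (supporting), 4 (interstitial/stromal), 8 (germ) and 5 (endothelial), the sex difference 6 (11) at E12.5 and 5 (9) at E13.5 in supporting cells, 2 (1), 1 (4) and 3 (5) in interstitial/stromal cells over the 3 stages, 0 (1) in germ cells at E12.5, 0 (3) in endothelial and 1 (2) in *αSma-EYFP* cells at E13.5, stage 5 (8) in XY germ, 1 (3) in XX germ and 3 (8) in XY endothelial cells, and the change of the interstitial/stromal sex difference 3 (1). The causes were not tested.

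Leaving out single arrays gave, for the change of the sex difference, 0 to 5 in endothelial, 2 to 5 in germ and 1 to 2 in interstitial/stromal cells. For the sex difference it gave 0 to 8 in endothelial cells at E11.5 (8 without XY replicate 1), 1 to 3 at E13.5, 3 to 6 in supporting cells at E11.5, 0 to 1 in germ and 2 to 4 in interstitial/stromal cells at E12.5, and 0 to 2 and 1 to 2 in *αSma-EYFP* cells at E12.5 and E13.5. By stage it gave 3 to 4 in XX interstitial/stromal and 4 to 12 in XY endothelial cells.

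Replicate numbers are shared by the groups, but same-numbered XY and XX arrays deviated from their group means with correlations of −0.309 to 0.234 over 36 pairs, 10 of them over 0.1, and 18 of 36 arrays correlated best with their own number. In 1 of 12 settings, germ cells at E12.5, all 3 pairs were over 0.1 (0.130, 0.135 and 0.208), a hint from the data that the labels do not give. With the replicate number as a block within lineage and stage, the change of the sex difference called 2 (1) in interstitial/stromal and 0 (1) in endothelial cells, and 2 named calls were lost, *Foxn3* for that change (0.69, limma adjusted p = 0.057) and *Foxp4* in interstitial/stromal cells at E12.5 (0.40, limma adjusted p = 0.089). A block over all arrays, run for the 43 named lineage and stage differences, changed no call. Small differences near a log2 intensity of 6, such as those of *Foxa3*, are close to the filter.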

Other observations

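The array of a whole newborn mouse, which has no replicate and entered no comparison, held *Foxn3* at 10.81, *Foxp1* at 8.65, *Foxc2* at 8.52 and *Foxp4* at 7.74. *Foxs1* was at 7.10, *Foxp2* at 6.85, *Foxm1* at 6.84, *Foxd1* at 6.73, *Foxa3* at 6.51, *Foxh1* at 6.00, *Foxc1* at 5.90 and *Foxr1* at 5.37. The *Foxr1* value lay within the range of the sorted somatic cells and below every germ cell array.

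In the second cluster of *Foxf1*, the level rose by E13.5 in XY (0.75) and XX endothelial cells (1.41), and at E13.5 it was higher in XY than in XX germ cells (6.10, 7.14 and 7.09, against 6.33, 6.03 and 6.00, difference 0.65, limma adjusted p = 0.0074), where the arrays overlapped.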
